A study of Caenorhabditis elegans with 12 samples.

Results

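The *fbxa* genes, which form the F-box A family of *C. elegans*, were followed across control larvae and larvae with mild or strong depletion of *nuo-5*, a subunit of mitochondrial Complex I. Members were taken by name, as every gene whose symbol is fbxa- followed by a number and which has a probe set annotated to that symbol alone. This gave 188 genes of the 25478 genes measured in the same way, each on 1 probe set, so that no choice among probe sets was needed. The gene table of the reference assembly WBcel235 lists 222 *fbxa* genes, and it held all 188 members under the same symbol, 166 as protein coding genes and 22 as pseudogenes. The remaining 34 had no probe set of their own and were not analysed here.

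F-box proteins are the substrate-recruiting subunits of SCF ubiquitin ligases, in which an Skp1-related protein links the F-box protein to a cullin and a RING protein brings in the ubiquitin-conjugating enzyme. Nematodes carry greatly expanded F-box families, and the proteins of the A family join the F-box to a second domain, called FTH or DUF38, that is thought to bind targets. Most members have no assigned target. FBXA-75 and FBXA-158 are among the few with a known setting, since they work with the cullin CUL-6, the RING protein RCS-1 and the Skp1-related proteins SKR-3, SKR-4 and SKR-5 in the response of worms to intracellular pathogens and to proteotoxic stress.

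Total RNA of whole wild-type N2 larvae, labelled as L3 and grown at 20 °C on bacteria that express double-stranded RNA, was hybridized to Affymetrix Gene ST arrays, 4 arrays per group. Strong *nuo-5* RNAi was obtained in the filial generation, mild *nuo-5* RNAi in the parental generation, and control animals were fed bacteria with the empty vector pL4440. Strength and generation can therefore not be told apart, and no label gives the generation of the control animals. In the paper, lutein belongs to a separate array comparison, of strong RNAi with and without it. It is not described for the comparison of control, mild and strong RNAi used here. No label says whether a given sample received lutein or its solvent DMSO. The 4 replicates carry the numbers I, III, IV and V in every group, and the values are the authors' RMA signals on a log2 scale. In whole animals a smaller or larger number of cells of a type cannot be told apart from a change of RNA per cell.

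The targeted gene fell in both RNAi groups, to 7.04 ± 0.15 under strong RNAi and 7.40 ± 0.25 under mild RNAi, against 8.43 ± 0.11 in controls (log2, SD, n = 4 each). Between strong and mild RNAi its difference of -0.37 ± 0.14 (SE) did not pass by limma (adjusted p = 0.118). The arrays of these groups overlapped, at 6.89 to 7.22 under strong RNAi and 7.15 to 7.66 under mild RNAi. Markers of adult animals set the strong arrays apart from their L3 label and from each other. The adult cuticle collagen *col-19* read 9.29, 3.44, 8.22 and 6.15 on strong I, III, IV and V, against 2.65 to 3.09 on the control arrays. Summed log2 signals of the yolk protein genes *vit-2*, *vit-5* and *vit-6* spanned 11.6 to 30.8 on strong arrays, 8.36 to 9.29 on mild arrays and 8.12 to 10.6 on control arrays, and those of 7 oocyte and eggshell genes spanned 36.6 to 56.9 on strong arrays, 37.8 to 41.8 on mild arrays and 37.7 to 41.4 on control arrays. All 3 yolk genes, 4 of the 7 oocyte genes and the collagens *col-19* and *col-119* passed the test as higher under strong RNAi, with strong III the lowest strong array for each of them, while the third listed cuticle gene, *rol-6*, was lower. Of the other tissue markers, 2 of 4 muscle and 2 of 4 germline genes were lower, 1 of 3 intestine genes was higher, and none of 4 neuron or 5 sperm genes passed. The number of *fbxa* genes that rose is therefore also given without each strong array in turn, and the size of their rise on each strong array. As strong III had the lowest *col-19*, yolk and oocyte signals of the strong arrays, the count without it does not address stage. A later stage of the strong samples cannot be told apart from strong RNAi in the comparisons below.

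Signals of *fbxa* genes were often close to background. A threshold for it was set at 3.01, the 40th percentile of all values in the table, because the deposited values carry no detection calls. The mean over all arrays lay above it for 74 of the 188 *fbxa* genes (39.4%), against 60.2% of all genes, and this share depends on the threshold, with 23.4% at the 50th percentile and 69.7% at the 75th percentile of chemoreceptor genes. Per group, 84 *fbxa* genes (44.7%) were above background under strong RNAi, 59 (31.4%) under mild RNAi and 57 (30.3%) in controls, while the share of all genes stayed at 60.2%, 59.4% and 60.5%. No strong array overlapped the other groups in this count, which ran from 77 to 88 *fbxa* genes on strong arrays, from 61 to 66 on mild arrays and from 63 to 65 on control arrays. Between the group means, 32 members (17%) lay above background under strong RNAi and not in controls, compared with 3.41% of all genes, and 5 members (2.66%) did the reverse, compared with 3.65%. Only 35 members were above background on every array, and 57 on none.

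Under strong RNAi, 43 of the 188 *fbxa* genes (22.9%) were higher than in controls at an adjusted p under 0.05, where 8.69% of all genes were higher. A single member, *fbxa-39*, was lower (5.59% of all genes). The median log2 difference of the *fbxa* genes was 0.14, against -0.05 for all genes, and 125 members (66.5%) had a positive difference, against 43.3% of all genes. In 45 members all 4 strong arrays lay above all 4 control arrays (10% of all genes), and in 6 all strong arrays lay below (8.45% of all genes). Of the 43 genes, 28 rose at least 2-fold and 8 at least 4-fold by their measured means. The number of genes higher without strong III was 48, and it was 40, 39 and 35 without strong I, IV and V.

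**Figure D1:**
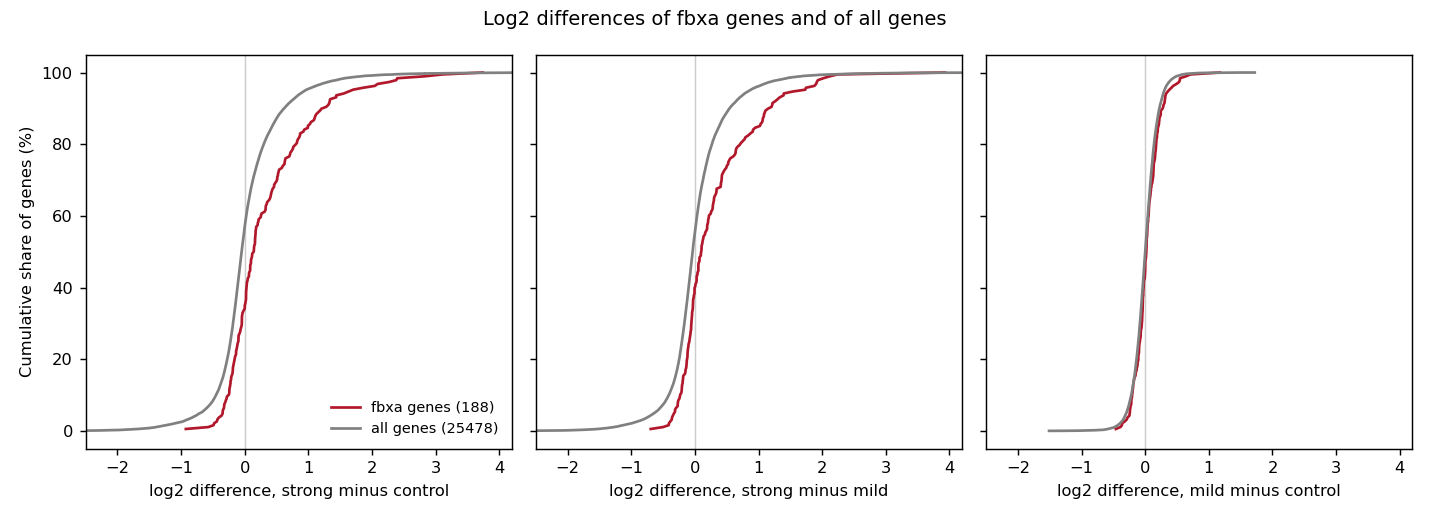
Cumulative share of genes (vertical axis, %) by log2 difference (horizontal axis) for strong minus control, strong minus mild and mild minus control, with the 188 *fbxa* genes in red and all 25478 genes in grey. The red curve lies to the right of the grey one in both comparisons with strong RNAi, with medians of 0.14 and 0.10 against -0.05 and -0.04, and close to it for mild minus control.

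The largest rise was that of *fbxa-24*, a protein coding gene on chromosome II. It read 8.19, 7.27, 8.48 and 8.72 on strong I, III, IV and V, 4.55, 3.51, 4.30 and 4.57 on the mild arrays and 4.11, 3.82, 5.78 and 3.98 on the control arrays in the same replicate order. Every strong array lay above all mild and control arrays, and control IV stood above the remaining controls. The difference between strong RNAi and control was 3.74 ± 0.43 (SE) on the log2 scale, or 13.4-fold, with an adjusted p of 0.000365, and that between strong and mild RNAi was 3.93 ± 0.43 (adjusted p = 0.000547).

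The second largest rise was that of *fbxa-92*, a pseudogene on chromosome III. Its signals were 7.78, 7.70, 8.0 and 8.42 under strong RNAi, 6.38, 4.62, 7.25 and 5.92 under mild RNAi and 4.85, 4.60, 4.66 and 5.36 in controls. Strong arrays did not overlap either group, whereas the mild arrays were scattered between the control level and nearly that of strong RNAi. The rise over control was 3.11 ± 0.42 (8.62-fold, adjusted p = 0.000864) and that over mild RNAi 1.93 ± 0.42 (adjusted p = 0.014). Another pseudogene of chromosome III, *fbxa-91*, was the sixth by size of the rise, and its arrays read 7.86, 8.17, 8.20 and 8.60 under strong RNAi, 6.88, 5.87, 7.02 and 6.13 under mild RNAi and 5.68, 5.89, 6.29 and 5.89 in controls. Here strong III was not the lowest strong array, and mild I and mild IV again stood highest of the mild arrays. Its difference was 2.27 ± 0.25 against control (4.81-fold, adjusted p = 0.000307) and 1.74 ± 0.25 against mild RNAi (adjusted p = 0.00242).

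Between *fbxa-92* and *fbxa-91* by size of the rise were *fbxa-59*, *fbxa-30* and *fbxa-26*, protein coding genes of chromosome III. The signal of *fbxa-59* was 6.16, 5.01, 5.94 and 6.93 under strong RNAi, 4.67, 3.03, 4.65 and 3.23 under mild RNAi and 3.87, 3.18, 2.54 and 3.14 in controls, a rise of 2.83 ± 0.46 over control (adjusted p = 0.00239). As for *fbxa-92*, replicates I and IV were the 2 high ones of the mild group. *fbxa-30* read 4.53, 3.18, 5.37 and 6.35 under strong RNAi, against 2.34 to 2.90 on mild and 2.11 to 2.70 on control arrays. *fbxa-26* read 5.43, 3.60, 5.14 and 5.88 under strong RNAi, against 2.90 to 3.76 on mild and 2.58 to 2.74 on control arrays. In both genes strong III was far below the other strong arrays but still above every control array. Their measured differences from control were 2.4 ± 0.49 (adjusted p = 0.0073) and 2.38 ± 0.38 (adjusted p = 0.00217). Because all their control arrays lay at or below background, these are given as rises of at least 3.61-fold and at least 4.02-fold, the mean of the strong arrays over the background threshold.

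**Figure D2:**
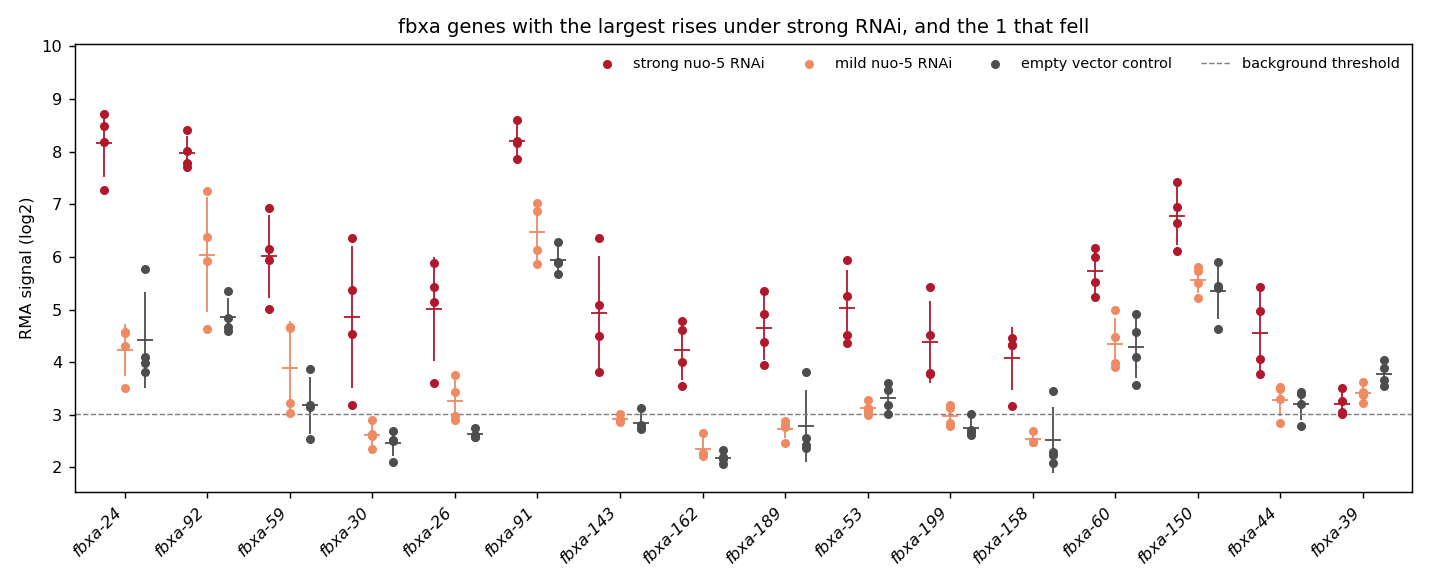
RMA signal (log2, vertical axis) of the 15 *fbxa* genes with the largest rises and of *fbxa-39*, which fell, on each array (points), with the group mean and SD (bars). Strong RNAi is left, mild RNAi in the middle and control right for each gene, and the dashed line is the background threshold at 3.01. *fbxa-24* shows the largest difference between the strong and control means, with strong arrays from 7.27 to 8.72 and control arrays from 3.82 to 5.78.

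The remaining genes among the 15 largest rises spanned 4 chromosomes. *fbxa-162*, a pseudogene on chromosome II, had 3.54 to 4.78 under strong RNAi, 2.22 to 2.66 under mild RNAi and 2.06 to 2.32 in controls, a rise of at least 2.33-fold (measured difference 2.05 ± 0.23, adjusted p = 0.000317). On chromosome V, *fbxa-143* rose by 2.09 ± 0.39, *fbxa-189* by 1.86 ± 0.34, *fbxa-199* by 1.63 ± 0.30, *fbxa-150* by 1.44 ± 0.29 and *fbxa-44* by 1.34 ± 0.32. Only *fbxa-150* of these 5 had all 4 control arrays above background, with 6.12 to 7.43 under strong RNAi, 5.22 to 5.81 under mild RNAi and 4.62 to 5.91 in controls. *fbxa-53*, the 1 member on the X chromosome that rose, had 4.37 to 5.94 under strong RNAi, 3.0 to 3.28 under mild RNAi and 3.02 to 3.60 in controls (difference from control 1.71 ± 0.28, adjusted p = 0.00275). *fbxa-60* on chromosome III rose by 1.44 ± 0.32 (adjusted p = 0.011), and *fbxa-158* on chromosome II is described below with its partners. Adjusted p-values of the 15 genes against control ran from 0.000307 to 0.0154.

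The other 28 genes that rose had differences between 0.46 and 1.34. Among those that were also higher than under mild RNAi were *fbxa-14*, *fbxa-29*, *fbxa-74*, *fbxa-166*, *fbxa-79*, *fbxa-4*, *fbxa-61*, *fbxa-31*, *fbxa-182*, *fbxa-105* and *fbxa-153*. In 38 of the 43 genes all strong arrays lay above all control arrays, and *fbxa-158*, *fbxa-55*, *fbxa-48*, *fbxa-27* and *fbxa-12* overlapped. Dim controls were common: the control mean was at or below background in 23 of the 43, and in 14 every control array was. For these 14 the rise is only bounded from below, by 2-fold or more in *fbxa-26*, *fbxa-30* and *fbxa-162* and by less in the rest, and *fbxa-12* and *fbxa-99* had strong means still at or below background. The calls of *fbxa-55* and *fbxa-12* were the least firm, with adjusted p-values of 0.0479 and 0.0421.

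Only *fbxa-39* fell. Its arrays read 3.27, 3.50, 3.05 and 3.02 under strong RNAi, 3.38, 3.43, 3.62 and 3.23 under mild RNAi and 3.54, 3.89, 3.66 and 4.03 in controls. The strong arrays were all below the control arrays, while the mild arrays overlapped both groups. The difference from control was -0.57 ± 0.15 (adjusted p = 0.0246), and this call was lost when only the 8 arrays compared were fitted and when control III, control V, strong IV or strong V was left out. A larger difference, -0.92, was measured for *fbxa-72* and did not pass (adjusted p = 0.0625), with 2.84 to 3.78 under strong RNAi and 3.71 to 5.03 in controls.

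The strong arrays did not contribute equally. Over the 43 genes, the median log2 difference from the control mean was 1.23 on strong I, 0.76 on strong III, 1.31 on strong IV and 1.48 on strong V. Strong III was the lowest strong array for 31 of the 43 and strong V the highest for 22, and strong III lay above every control array in 39 of the 43. The exceptions, with a lower signal on another strong array, included *fbxa-91*, *fbxa-31*, *fbxa-63*, *fbxa-153* and *fbxa-209*, and *fbxa-209* had its highest strong signal on strong III. Of the strong arrays, the adult cuticle collagens *col-19* and *col-119* and the yolk and oocyte markers were also lowest on strong III. The third listed cuticle gene, *rol-6*, was highest there (9.14). With strong III as the only strong array, the median log2 difference of all *fbxa* genes from control was 0.06, against 0.14 with every strong array. All 43 kept a positive difference on strong III. They were chosen in a fit that includes this array, so neither this nor the 39 above every control array tests the rise on it.

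**Figure D3:**
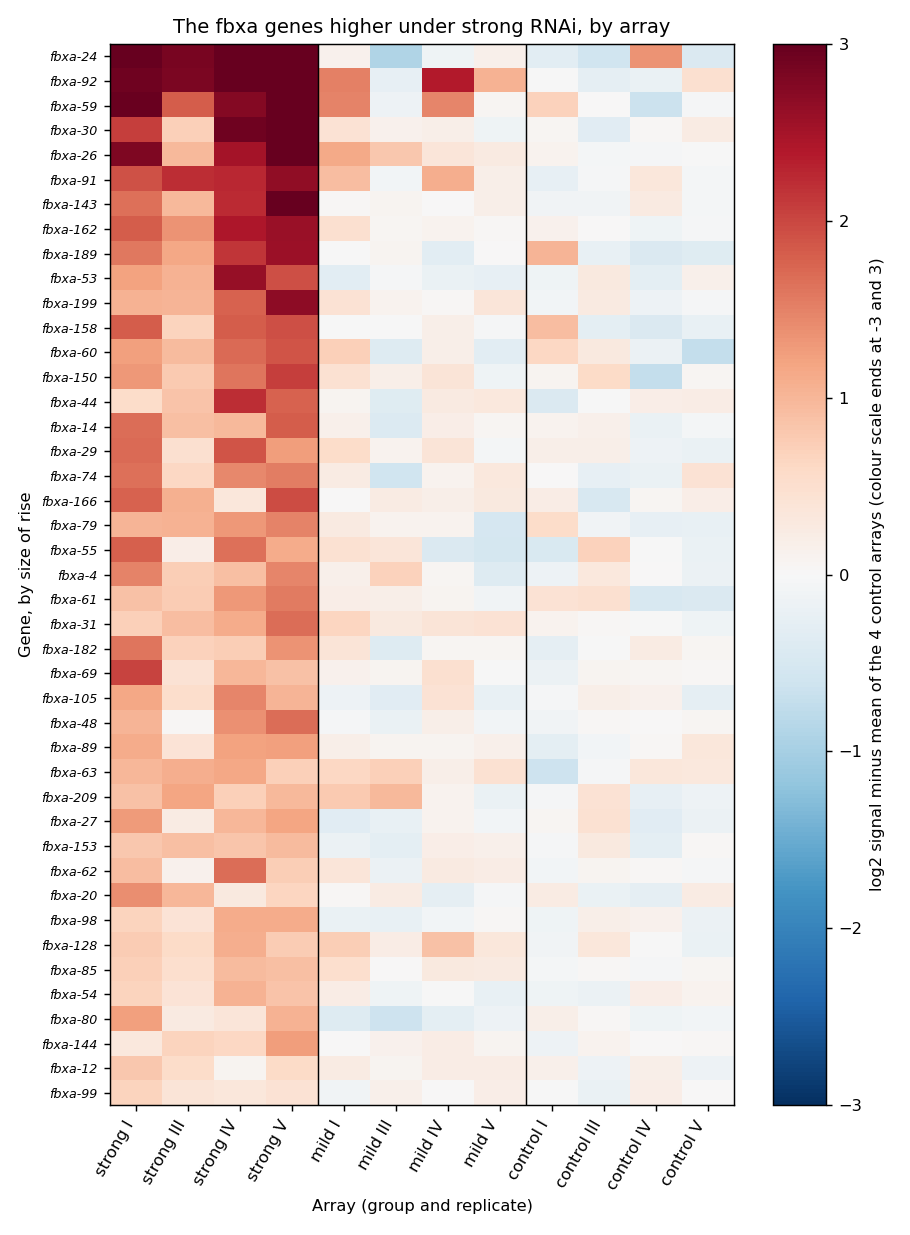
Each of the 43 *fbxa* genes higher under strong RNAi (rows, ordered by the size of the rise) on each of the 12 arrays (columns, strong RNAi, mild RNAi and control from left to right), as log2 signal minus the mean of the 4 control arrays. Strong III is paler than the other strong arrays, with a median difference of 0.76 against 1.23 to 1.48, and the mild columns are mostly pale, with *fbxa-92*, *fbxa-59* and *fbxa-91* darker on mild I and mild IV.

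Strong RNAi was also set against mild RNAi, in which *nuo-5* was depleted but development was less affected. Here 39 *fbxa* genes (20.7%) were higher under strong RNAi (6.30% of all genes) and none was lower by limma (4.31% of all genes). At an unadjusted p under 0.05, 9 of the 188 members were lower, next to 2909 of all 25478 genes. The median difference of the members was 0.10, against -0.04 for all genes, and it was 0.0404 with arrays centred on their medians. This count depended more on single arrays than the one against control, with 45 genes without strong III, 24 without strong V and 23 without mild V. It was 24 when only the 8 arrays of the pair were fitted. The comparisons with mild RNAi and with control use the same strong arrays, so they do not count as separate evidence: 36 genes were called in both, 7 against control alone and 3 against mild RNAi alone.

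The 3 called against mild RNAi alone were *fbxa-115*, *fbxa-82* and *fbxa-219*. They kept this call in 14, 7 and 6 of 20 alternative fits, in that order. *fbxa-115* read 6.66, 6.62, 6.80 and 7.73 under strong RNAi, 5.78, 6.38, 5.27 and 5.79 under mild RNAi and 6.15, 6.79, 5.78 and 6.06 in controls. Its strong arrays lay above all mild arrays but overlapped control III, and the difference was 1.15 ± 0.30 against mild RNAi (adjusted p = 0.0284) and 0.76 ± 0.30 against control (adjusted p = 0.112). The 7 called against control alone were *fbxa-63*, *fbxa-209*, *fbxa-128*, *fbxa-62*, *fbxa-55*, *fbxa-12* and *fbxa-99*. Of these, only *fbxa-63* and *fbxa-128* kept the call against control in all 20 alternative fits. *fbxa-55* was set apart by the threshold alone, with 1.19 against control (adjusted p = 0.0479) and 1.22 against mild RNAi (adjusted p = 0.0517). For *fbxa-128* the strong arrays spanned 4.59 to 5.10, the mild arrays 4.23 to 4.90 and the control arrays 3.81 to 4.36, so that mild RNAi overlapped both. Its differences were 0.80 ± 0.18 between strong RNAi and control (adjusted p = 0.0117) and 0.25 ± 0.18 between strong and mild RNAi (adjusted p = 0.441).

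Mild RNAi against control gave no *fbxa* gene past the threshold in either direction by limma, in a comparison that called 0.0118% of all genes higher and 0.00392% lower. At an unadjusted p under 0.05, 5 members were higher and 2 lower, next to 443 and 366 of all genes. The 5 were *fbxa-92* (difference 1.17, unadjusted p = 0.0159), *fbxa-128* (0.55, unadjusted p = 0.00952), *fbxa-31*, *fbxa-63* and *fbxa-149*, and the 2 were *fbxa-39* and *fbxa-223*. All had an adjusted p of 1.00.

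Brightness and change were only partly related. The 10 *fbxa* probe sets with the highest mean signal were those of *fbxa-91*, *fbxa-115*, *fbxa-92*, *fbxa-105*, *fbxa-106*, *fbxa-150*, *fbxa-107*, *fbxa-157*, *fbxa-24* and *fbxa-6*, although signals of different probe sets do not rank transcripts by abundance. Of these 10, 5 were called higher than control, where 22.9% of all members and 8.69% of all genes were. The mean that ranks them includes the strong arrays, which moves genes that rose up the ranking. *fbxa-106* gave overlapping groups, with 5.28 to 6.25 under strong RNAi, 5.75 to 6.49 under mild RNAi and 5.56 to 6.60 in controls. *fbxa-157* had 5.68 to 6.08 under strong RNAi, 4.78 to 6.13 under mild RNAi and 5.30 to 6.14 in controls (difference from control 0.16 ± 0.27). Among the 74 members above background by their mean over all arrays, 35 were higher under strong RNAi (47.3%, with 13.8% of all genes above background). Below it, 8 of 114 were (7.02%, with 0.958% of all such genes). The mean that divides the members includes the strong arrays, so these shares describe the set and do not test it.

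Family members sit in groups along the chromosomes, and the genes that rose were spread over several of them. In the order of the reference annotation, 107 members fell into 39 runs of *fbxa* genes with no other coding gene or pseudogene between them. By chromosome, the higher genes were 23 of 64 on III, 6 of 19 on II, 12 of 75 on V, 1 of 6 on IV, 1 of 17 on X and 0 of 7 on I, beside 8.69% of all genes. The shares on III (35.9%), II (31.6%) and V (16%) were above that value and the share on X (5.88%) was below it, and differences between chromosomes were not tested. Pseudogenes rose in 4 of 22 cases (18.2%) and protein coding members in 39 of 166 (23.5%). For the 60 pairs of direct neighbours measured, both rose in 7, 1 of the pair rose in 22 and neither rose in 31.

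The pairs named next were chosen because both neighbours rose. Whether neighbours rose together more often than members that are not neighbours was not tested. In the chromosome III run that holds *fbxa-31*, *fbxa-29* and *fbxa-30*, the differences from control were 1.11, 1.33 and 2.4, while *fbxa-32* in the same run had -0.03. As every control array of *fbxa-29* and *fbxa-30* lay at or below background, their rises are bounded from below, at 0.53 and 1.85. *fbxa-182* and *fbxa-4* form a run on chromosome II and rose by 1.10 ± 0.22 and 1.15 ± 0.23. *fbxa-166* and *fbxa-158*, *fbxa-61* and *fbxa-63*, *fbxa-26* and *fbxa-27*, and *fbxa-20* and *fbxa-80* were the other pairs that both rose. Among them, *fbxa-27*, *fbxa-20* and *fbxa-80* lost the call in 5, 5 and 7 alternative fits.

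Other members rose beside a gene that did not pass or that fell. *fbxa-59* rose by 2.83 beside *fbxa-22*, which had 0.12, and *fbxa-162* rose by at least 1.22, its control arrays being at background, between *fbxa-161* and *fbxa-163*, which had 0.17 and 0.40. *fbxa-48* rose by at least 0.74, for the same reason, directly next to *fbxa-39*, the member that fell. The call of *fbxa-48* was lost in 7 of 19 alternative fits. A run of 10 genes on chromosome III, 7 of them measured, contained 1 that rose, *fbxa-79* at 1.21 ± 0.21, and its neighbour *fbxa-75* had -0.05.

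**Figure D4:**
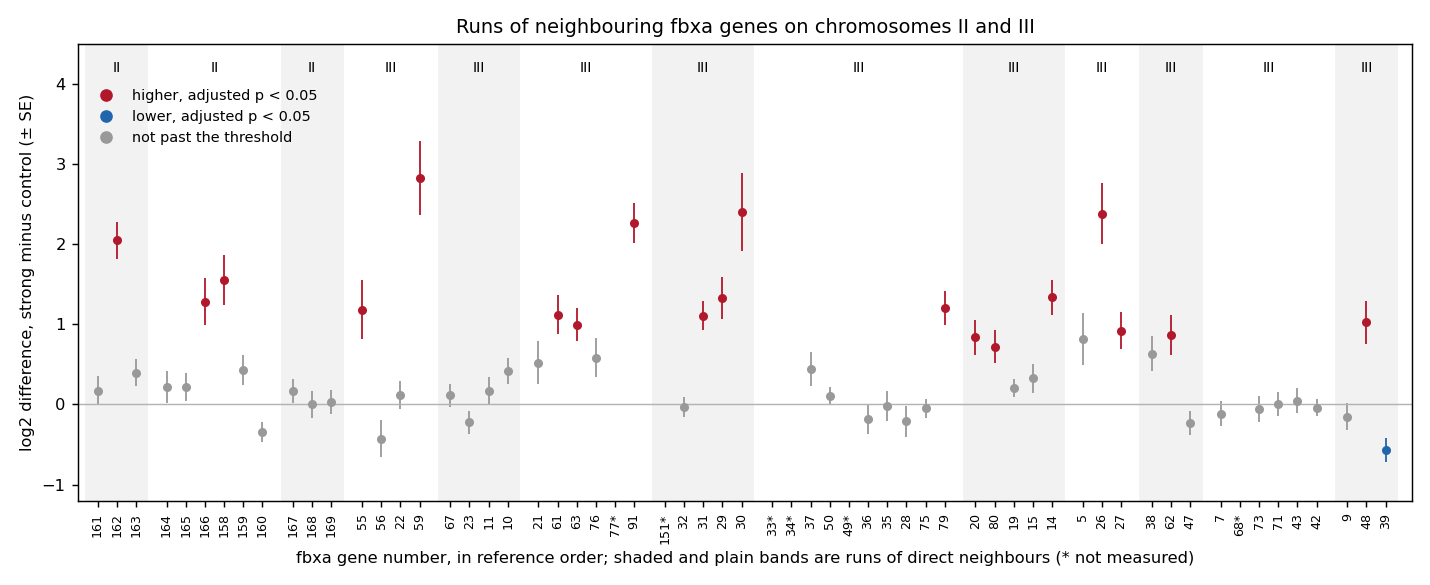
Log2 difference between strong RNAi and control (vertical axis, point ± SE) of *fbxa* genes in runs with at least 3 measured members on chromosomes II and III, in reference order. Red points rose, the blue point fell and grey points did not pass the threshold. Neighbours *fbxa-31*, *fbxa-29* and *fbxa-30* all rose, with measured differences of 1.11, 1.33 and 2.4 (lower bounds of 0.53 for *fbxa-29* and 1.85 for *fbxa-30*), whereas *fbxa-59* at 2.83 stands beside *fbxa-22* at 0.12.

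Close copies limit how far a signal can be assigned to 1 gene. Another 4 probe sets are annotated to pairs of *fbxa* genes and were left out of the counts, 2 for *fbxa-208* and *fbxa-77* and 2 for *fbxa-78* and *fbxa-151*. For each pair, 1 of the 2 probe sets was higher under strong RNAi, by 1.01 ± 0.21 for *fbxa-208* and *fbxa-77* (6.97 to 7.86 under strong RNAi against 6.36 to 6.48 in controls, adjusted p = 0.00734) and by 1.81 ± 0.32 for *fbxa-78* and *fbxa-151* (4.46 to 5.68 under strong RNAi against 2.51 to 4.17 in controls, adjusted p = 0.00381). The second probe set of each pair did not pass, with differences of 0.70 and 0.91. In the reference order *fbxa-77* is a direct neighbour of *fbxa-91*, and *fbxa-78* of *fbxa-92*. Also, 28 members overlap another coding gene or pseudogene in the reference. Probe sequences were not used here, so signal from a near-identical or overlapping gene cannot be told apart for any member.

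Of the 3 *fbxa* genes listed with the pathogen response, *fbxa-158* and *fbxa-182* rose and *fbxa-75* did not pass the test. *fbxa-158* read 4.33, 3.18, 4.33 and 4.45 under strong RNAi, 2.49, 2.49, 2.69 and 2.47 under mild RNAi and 3.44, 2.23, 2.08 and 2.3 in controls. Its strong arrays cleared the mild group, but strong III lay under control I, and the difference from control was 1.56 ± 0.31 (adjusted p = 0.00709). *fbxa-182* had 4.95, 4.02, 4.08 and 4.69 under strong RNAi, 3.72, 2.95, 3.40 and 3.39 under mild RNAi and 3.05, 3.32, 3.57 and 3.39 in controls, with no overlap between strong RNAi and either group (difference from control 1.10 ± 0.22, adjusted p = 0.00741). *fbxa-75* stayed below background on every array, at 2.21 to 2.45 under strong RNAi, 2.20 to 2.39 under mild RNAi and 2.13 to 2.61 in controls, so that no change could be detected in it at this signal (difference from control -0.05 ± 0.12, adjusted p = 0.839).

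Of the ligase subunits that work with F-box proteins, *cul-6*, *skr-3*, *skr-4* and *skr-5*, whose products act with FBXA-158, rose, and *rcs-1* did not pass. *cul-6*, the cullin, had 5.24, 5.23, 6.16 and 5.99 under strong RNAi, 4.71 on average under mild RNAi and 4.80, 4.45, 4.34 and 4.47 in controls (difference from control 1.14 ± 0.21, adjusted p = 0.00475). The Skp1-related gene *skr-5* had 6.75, 4.84, 7.27 and 7.34 under strong RNAi against 2.73 to 3.13 in controls (3.58 ± 0.44, adjusted p = 0.000517), and again strong III was the low strong array. *skr-3* and *skr-4* rose by 1.38 ± 0.19 and 1.51 ± 0.37. The RING gene *rcs-1* was measured at 6.53 to 8.09 under strong RNAi and 6.31 to 6.83 in controls, and its difference of 0.80 ± 0.29 did not pass (adjusted p = 0.0925).

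The general subunits of the ligase did not pass. *cul-1*, the cullin of the canonical SCF complex, differed from control by 0.03 ± 0.12 and the RING gene *rbx-1* by -0.03 ± 0.11 (adjusted p = 0.908 and 0.885). Among 23 measured genes of the SCF core, 4 were higher against control (*skr-3*, *skr-4*, *skr-5* and *skr-19*), 2 were lower (*skr-8* and *skr-18*) and the median difference was 0.05. These are 17.4% and 8.7% of the list, beside 8.69% and 5.59% of all genes. The 11 measured genes of the Nedd8 cycle, which switches cullins on and off, held none that passed against control by limma. At an unadjusted p under 0.05, 2 of them were higher and 3 lower, next to 3917 and 3281 of all 25478 genes. Of 9 single F-box genes outside the family, *mfb-1* rose by 2.32 ± 0.53 (adjusted p = 0.0132) and *fbxl-1* by 1.19 ± 0.19 (adjusted p = 0.00195), and the other 7, such as *lin-23*, *sel-10* and *dre-1*, did not pass.

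**Figure D5:**
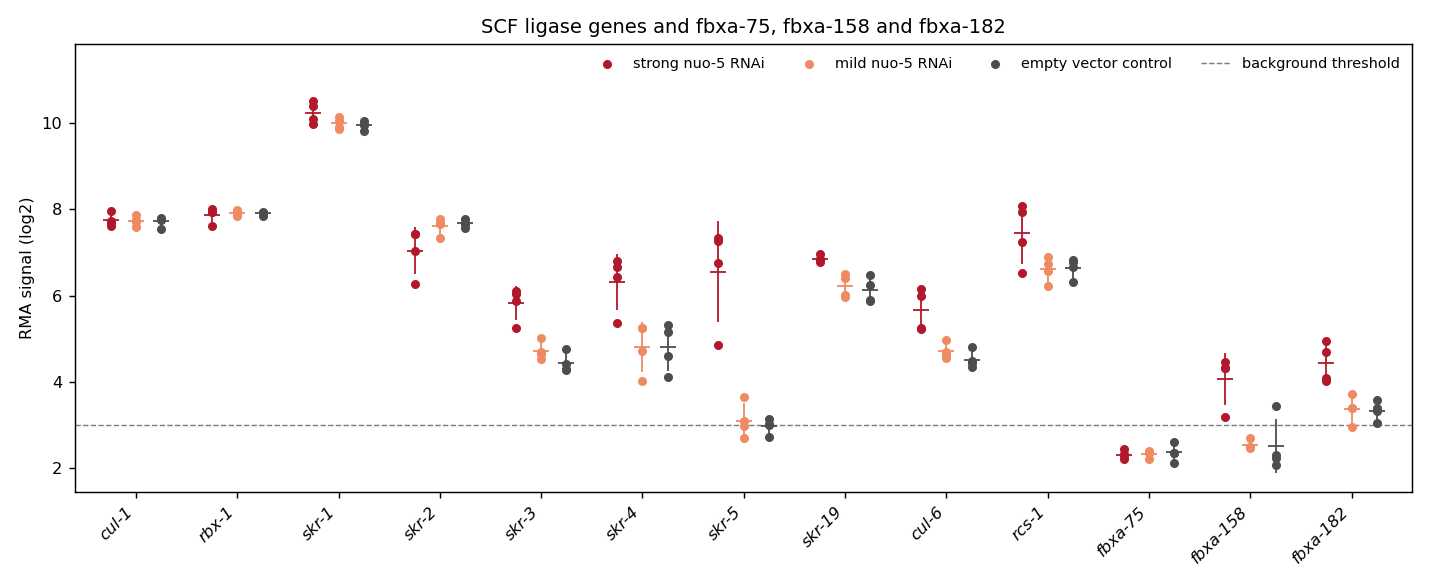
RMA signal (log2, vertical axis) of SCF ligase genes and of *fbxa-75*, *fbxa-158* and *fbxa-182* on each array (points) with the group mean and SD (bars), strong RNAi left, mild RNAi in the middle and control right. The dashed line is the background threshold. *skr-5* shows the widest gap, from 4.84 to 7.34 on strong arrays and from 2.73 to 3.13 on control arrays, and *cul-1* and *rbx-1* lie level across the groups.

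In the list of 15 intracellular pathogen response genes, 7 were higher under strong RNAi (8.69% of all genes) and none was lower (5.59% of all genes): *cul-6*, *skr-3*, *skr-4*, *skr-5*, *eol-1*, *fbxa-158* and *fbxa-182*. All of these except *eol-1* are already counted among the members and ligase genes above. *pals-5*, a gene widely used as the reporter of this response, was at 2.18 to 2.87 under strong RNAi and 2.76 to 3.12 in controls (difference -0.31 ± 0.18, adjusted p = 0.286), and *F26F2.1*, *F26F2.3* and *F26F2.4* had differences between -0.18 and 0.03. Signals of *pals-5* were at or below background on all strong and mild arrays, and those of *F26F2.4* on every array, so that no change could be detected in them at this signal. *elt-2*, a transcription factor gene that marks the intestine, where this response takes place, was higher by 1.57 ± 0.25 (adjusted p = 0.00215), while *ges-1* and *ifb-2* did not pass. Whether the *fbxa* rises go with a larger share of intestinal RNA in the samples was not tested.

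The share of genes that rose was lower in the other F-box families than among the *fbxa* genes. None of 108 *fbxb* genes was higher against control by limma or at an unadjusted p under 0.05, their median difference was -0.10, and 2.78% of them lay above background. Of 44 *fbxc* genes 6 were higher (13.6%, against 8.69% of all genes), with a median of -0.03 and 31.8% above background. With so few *fbxb* genes above background, their lack of calls cannot be separated from low signal, and the families were not tested against each other.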

How the data were processed

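RNA of 12 samples, 4 per group by their labels, was hybridized to Gene ST arrays of Affymetrix, of which the methods and the labels name different versions. Log2 values of 29317 probe sets were deposited by the authors after RMA, with its background correction and quantile normalization. According to the paper, a replicate was left out of the array analysis because it differed strongly from the others, and 4 replicates of each group were kept. Symbols came from the platform annotation, and WBcel235 gave gene order and type (188 of 188 members matched).

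All probe sets were fitted in R 4.3.3 with limma 3.58.1 as 3 group means over 12 arrays, p-values being adjusted by Benjamini-Hochberg across every probe set (threshold 0.05), and adjusted p-values in the text come from that fit. The fit was tested on simulated data. Replicate numbers paired mild and control arrays (correlation of deviations 0.20 to 0.34), which changed no call of an *fbxa* gene between mild RNAi and control, and not all strong arrays (6.78e-05 to 0.31 with control and 0.036 to 0.23 with mild arrays). The labels describe the replicates as biological.

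Members and lists were chosen with earlier results of these data known. Named were the 15 largest rises against control, every fall, the 10 highest signals, *fbxa-75*, *fbxa-158*, *fbxa-182*, neighbours of called members, and ligase partners. Other members named were chosen after their values were seen. Alternatives covered normalization, filters, weights, thresholds and single arrays.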

Additional observations from a re-analysis of the deposited data

Results flagged for a closer look

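In 13 of 189 groups of 4 arrays, drawn from 52 *fbxa* genes and 11 partner genes, 1 array stood apart from the other 3 by a gap that passed Dixon's test for the group's range, and chance alone marks about 1 group in 20. All 13 were *fbxa* genes. Strong III was the low array for *fbxa-107*, at 5.36 with the others from 6.42 to 6.43, for *fbxa-158*, at 3.18 below 4.33, and for *fbxa-89*, at 3.34 below 4.04. Strong V was the high array for *fbxa-115*, at 7.73 above 6.80. Among control arrays, replicate IV was high for *fbxa-24*, at 5.78 above 4.11, and for *fbxa-143*, at 3.12 above 2.80. Control I was high for *fbxa-189*, at 3.81 above 2.56, and for *fbxa-158*, at 3.44 above 2.3, and low for *fbxa-69*, at 2.51 below 2.73. The mild arrays set apart were replicate I for *fbxa-162* (2.66 above 2.28) and *fbxa-219* (3.87 below 4.61), replicate IV for *fbxa-158* (2.69 above 2.49) and replicate III for *fbxa-12* (2.45 below 2.59).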

How the results depend on the processing

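Of the 43 rises against control, 34 passed in all 20 alternative fits that could include them, and of the 39 against mild RNAi 21 did, and no called gene changed direction. The count of 43 became 36 with only the 8 arrays compared and 27 at an adjusted p under 0.01. It was 28 with a log2 difference of at least 1, and 35 to 48 with 1 array left out. Strong III as the only strong array was an alternative chosen after seeing the data. It gave a median difference of 0.063 against control and 0.0665 against mild RNAi. The single fall became 2 with the replicate block, with centred arrays, with the filter on dim probe sets and with the intensity trend, 3 with array weights, 0 with only the 8 arrays compared, at an adjusted p under 0.01 and at a log2 difference of at least 1, and 0 to 2 with 1 array left out. The replicate block gave 45 rises against control, of which 42 were among the 43. The 39 rises against mild RNAi became 24 with only the 8 arrays compared, 13 at an adjusted p under 0.01 and 23 to 45 with 1 array left out, and falls against mild RNAi became 1 with the replicate block and with array weights. The median of 0.14 against control ranged from 0.10 to 0.15 and that of 0.10 against mild RNAi from 0.076 to 0.14 with 1 array left out, and centred arrays moved the median against mild RNAi to 0.0404. The cause of these shifts was not tested. The share of *fbxa* genes above background, 39.4%, became 23.4% at the 50th percentile, 69.7% at the 75th percentile of 954 chemoreceptor genes, 18.6% for all 12 arrays, and 44.7%, 31.4% and 30.3% for the strong, mild and control means. Signal near background limits many members, and 4 arrays per group limit the precision.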
